A study of Mus musculus with 10 samples.

Results

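The genes described here are 10 transcription factors that mark regions of the developing and adult forebrain: Dmrt3, Dmrta2 and Fezf2 of the pallium, Gbx2, Lhx8, Isl1 and Nkx6-2 of the ventral forebrain, and Zic1, Zic2 and Zic4 of the septum and midline. They were chosen by symbol, and 17 of the 45281 array probes carry one of these 10 names. The choice was made with earlier results of these data known, among them the genotype differences of Gbx2 and Dmrt3. The genotype values below are therefore a description, and no p-value is given for them.

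The tissue was the subventricular zone (SVZ), the layer beside the lateral ventricle where the adult mouse brain makes new neurons, taken by laser microdissection. There were 4 mice overexpressing Tlx and 5 wild type mice, all of strain BL6, 8 weeks old, and all with an ischemic stroke on 1 side of the brain (the labels write stratum, read here as striatum). Tlx is the orphan nuclear receptor encoded by Nr2e1, which keeps neural stem cells undifferentiated. The RNA of c1, a wild type mouse, went onto 2 arrays, which count as 1 mouse. How Tlx was overexpressed, which hemisphere was captured, where along the ventricle, and how long after the stroke are not given in the sources used here. The mouse names fall into 3 ranges, 2989 to 2996, 3155 to 3164, and c1 and c2, and what a range stands for is not given either.

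Stem cells of the SVZ are not alike. They keep a regional identity from the embryo: cells in the dorsal, pallial wall, the lateral and ventral walls and the medial, septal wall express different transcription factors and send different types of interneuron to the olfactory bulb. Many of the same factors are also kept by mature cells near the SVZ, such as cortical projection neurons, striatal and cholinergic neurons, oligodendrocytes and septal neurons, so that in bulk tissue a signal can come from a stem cell or from its neighbours. In such tissue, fewer cells of a type and less RNA per cell cannot be told apart.

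Upstream sequence is shown for 4 members: Gbx2 and Dmrt3, and the neighbours Zic1 and Zic4, whose signals varied together between mice. The signals of Gbx2 and Dmrt3 did not overlap between the genotypes, and neither did those of Lhx8, whose sequence is not shown. Each line gives the 250 bases before the RefSeq start of the gene on its own strand, build GRCm38.p6. Capitals mark AAGTCA, the half-site bound by Tlx, searched on both strands, or TAATTA, a homeodomain core, which reads the same on both strands and does not overlap with the other.
Gbx2, chr1:89931177-89931426, minus strand: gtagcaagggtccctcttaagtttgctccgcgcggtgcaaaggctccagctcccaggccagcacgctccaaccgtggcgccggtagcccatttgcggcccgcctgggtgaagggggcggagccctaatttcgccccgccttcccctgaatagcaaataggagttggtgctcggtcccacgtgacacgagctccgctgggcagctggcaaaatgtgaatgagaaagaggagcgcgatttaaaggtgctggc
Dmrt3, chr19:25610287-25610536, plus strand: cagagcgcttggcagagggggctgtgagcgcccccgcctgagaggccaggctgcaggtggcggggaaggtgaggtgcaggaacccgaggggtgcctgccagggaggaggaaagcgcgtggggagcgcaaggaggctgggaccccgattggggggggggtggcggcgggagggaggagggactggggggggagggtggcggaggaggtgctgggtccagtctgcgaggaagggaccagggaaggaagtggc
Zic1, chr9:91365769-91366018, minus strand: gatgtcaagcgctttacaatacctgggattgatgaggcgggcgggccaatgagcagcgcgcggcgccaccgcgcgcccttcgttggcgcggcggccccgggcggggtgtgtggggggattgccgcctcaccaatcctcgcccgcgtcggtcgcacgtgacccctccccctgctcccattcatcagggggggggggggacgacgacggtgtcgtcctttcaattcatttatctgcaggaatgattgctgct
Zic4, chr9:91368722-91368971, plus strand: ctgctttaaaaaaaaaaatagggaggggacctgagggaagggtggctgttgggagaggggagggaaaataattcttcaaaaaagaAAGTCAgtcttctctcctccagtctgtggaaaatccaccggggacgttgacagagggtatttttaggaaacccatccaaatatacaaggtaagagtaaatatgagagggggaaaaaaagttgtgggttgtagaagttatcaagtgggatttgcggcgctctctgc
RefSeq windows of this kind were at hand for 9 of the 10 members. AAGTCA was found in 1 of the 9, that of Zic4, 165 bases before the start, and in 13.1% of all 32851 windows. TAATTA was in 0 of the 9 and in 4.84% of all windows. The member windows were GC-rich in most cases, with a median GC content of 61.6% against 52.4% over all windows, from 44.4% in Zic4 and 46.0% in Lhx8 to 72.4% in Dmrt3. Zic1 and Zic4 lie head to head on chromosome 9, on opposite strands, with 3204 bases between their starts. A match of letters is a description and does not show that a factor binds there.

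Each array detected 20068 to 20590 probes (44.3% to 45.5%) above its negative controls, and 20456 probes with a detection p-value under 0.05 in at least 4 of 9 mice were tested. Signals are given as normalised log2 values, on which the 2 member probes detected in no mouse had genotype means of 4.21 to 4.27. The log2 signals of any 2 mice correlated at 0.979 to 0.995 across probes and those of the 2 arrays of c1 at 0.996. Nr2e1 was measured by 1 dim probe at 5.43 in the Tlx overexpressing and 5.01 in the wild type mice, and limma's adjusted p of 0.084 missed the threshold of 0.05. Of 10 progenitor and neuroblast markers of the SVZ, 8 were tested and detected in the tissue, and 4 of these were higher in the Tlx overexpressing mice, where 0.538% of all tested probes were called higher. The 8 differences were all positive, from 0.10 to 0.73, and 6 had an unadjusted p under 0.05, where 17.6% of all tested probes did. Choroid plexus genes are treated beside Dmrt3. Of the 10 tested, 2 fell, where 0.401% of all tested probes were called lower. Lists of ependymal (8 genes tested), striatal projection neuron (7), astrocyte (7), microglia (7) and endothelial (8) genes had 0 genes past the threshold in limma's moderated test. At an unadjusted p under 0.05 they had 2, 2, 1, 4 and 1, against the same 17.6% of all tested probes. All marker lists used here were chosen with earlier results of these data known, and nothing is read from their counts. Sex-linked probes were mixed. A dim probe of Y-linked Eif2s3y (mean 4.78) was detected in all 9 mice, and a second one and Uty ILMN_2907351 in 8. The Kdm5d probes and the other Uty probes, also Y-linked, were detected in 0 mice, and the 4 Xist probes in at most 1. The sex of the mice is not read from these probes.

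All 10 members were measured. Of their 17 probes, 15 were detected in all 9 mice, where 37.7% of all probes were, and 2 were detected in none (46.1% of all probes), ILMN_1252072 of Zic2 and ILMN_1246325 of Zic4. Their detection p-values ran from 0.085 to 0.696 and from 0.125 to 0.703. Other probes of both genes were detected, so these values say nothing about the genes. Of the 15 detected probes, 13 also had a detection p-value under 0.01 in every mouse. The exceptions were Gbx2 (0.028 in wild type mouse c2 and 0.036 in 2989) and Zic4 ILMN_1213145 (0.013 in 2989 and 0.028 in 2996), which were near background in those mice. The 2 arrays of c1 differed by a median of 0.10 and at most 0.18 on the log2 scale over the 15 probes. This was less than the spread between mice of 1 genotype for 14 of them, the exception being Lhx8. That spread, the SD within genotypes, had a median of 0.40 over the 15 probes and 0.15 over all tested probes. The repeat difference over all tested probes was 0.11, close to that of the members. The plot of log2 signals by mouse shows all 15 probes.

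**Figure D1:**
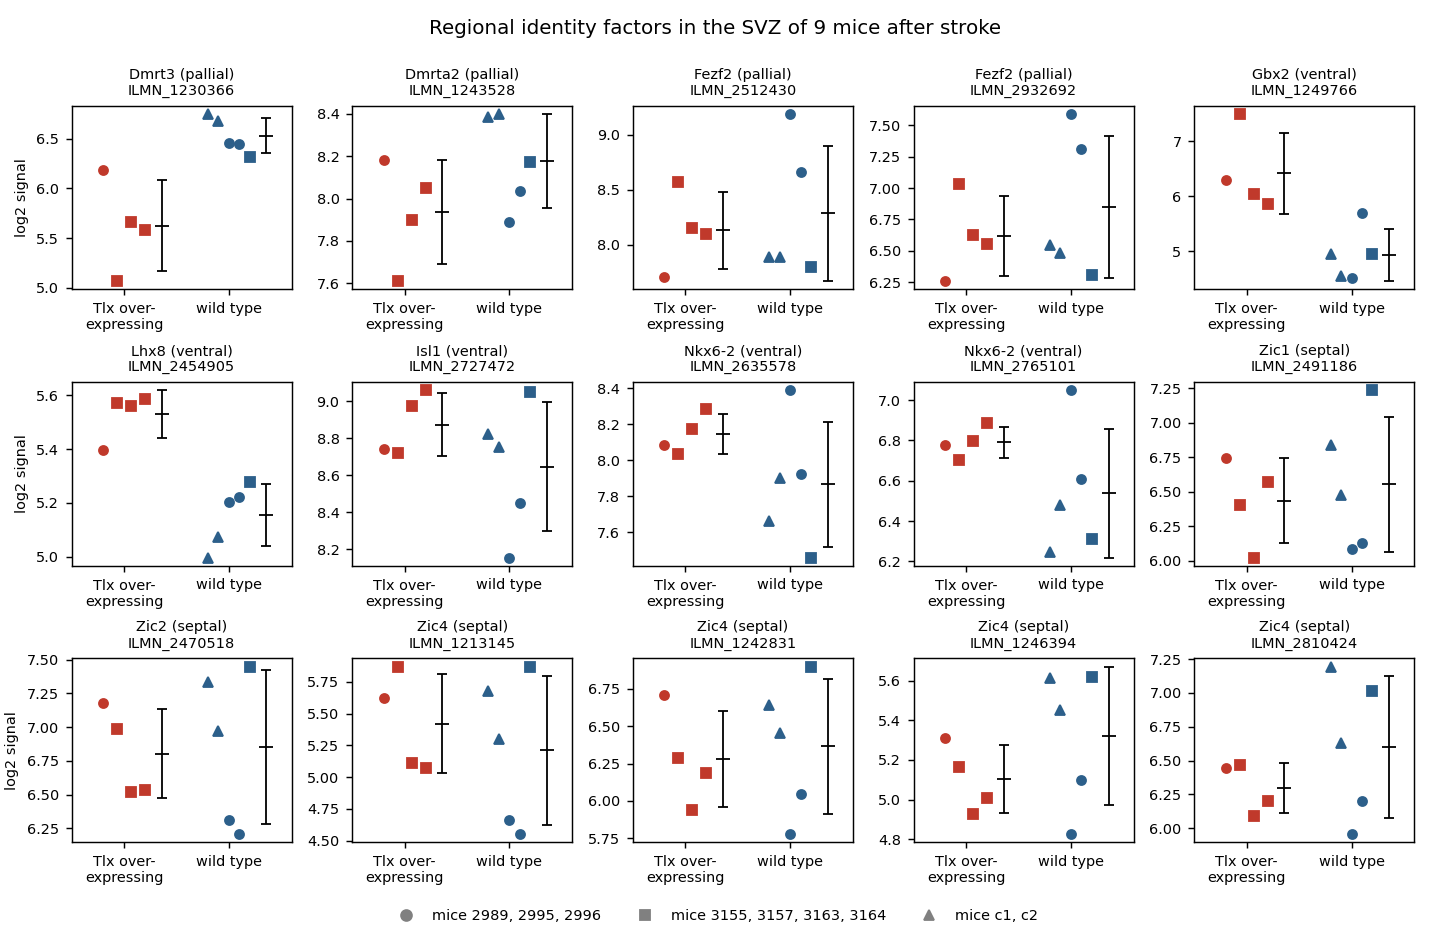
Log2 signal of the 15 tested probes in each of the 9 mice. Red points are Tlx overexpressing and blue points wild type mice, the point shape gives the range of the mouse name, and the bars are mean ± SD (n = 4 and 5). Dmrt3, Gbx2 and Lhx8 do not overlap between the genotypes. The Zic probes overlap and vary more among the wild type than among the Tlx overexpressing mice.

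Gbx2, a homeobox factor of the thalamus that is also needed for striatal cholinergic interneurons, showed the widest spread of all members. Its log2 signal was 6.29, 7.50, 6.03 and 5.85 in Tlx overexpressing mice 2995, 3155, 3157 and 3163. In wild type mice c1, c2, 2989, 2996 and 3164 it was 4.95, 4.54, 4.51, 5.69 and 4.95. Mouse 3155 stood highest in its group and 2996 in the other, and the groups did not overlap, with a gap of 0.16 between the nearest mice. In the deposited intensities before normalisation, the same mice read 96.6, 214.3, 93.1 and 79.4 against 52.1, 45.3, 39.5, 65.4 and 51.8. Array medians were 36.8 to 43.2, so that the wild type signal of Gbx2 was close to them in mice 2989 and c2 and above all of them in c1, 2996 and 3164. The mean was 6.42 ± 0.74 (SD, n = 4) against 4.93 ± 0.48 (SD, n = 5), a difference of 1.49 (SE 0.31) or 2.81-fold on the scale with an offset of 16. It was 0.88 in the intensities as the authors normalised them and 0.87 with no background correction.

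Lhx8, a LIM homeobox factor of basal forebrain cholinergic neurons, was dim and tight. It read 5.40, 5.57, 5.56 and 5.59 in mice 2995, 3155, 3157 and 3163 and 5.00, 5.07, 5.20, 5.22 and 5.28 in mice c1, c2, 2989, 2996 and 3164. The groups were apart by 0.12, and the lowest Tlx overexpressing mouse, 2995, lay closer to wild type mouse 3164 than to its own group. The difference was 0.37 (SE 0.08), 0.20 in the authors' normalised intensities and 0.24 with the range of the mouse name as a block.

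Isl1, a LIM homeobox factor of striatonigral and cholinergic neurons, was bright and overlapped. It read 8.74, 8.72, 8.97 and 9.06 in the Tlx overexpressing mice, in the same order, and 8.82, 8.75, 8.15, 8.45 and 9.05 in wild type mice c1, c2, 2989, 2996 and 3164. The difference was 0.23 (SE 0.16), less than the SD of 0.35 between the wild type mice. The 2 mice with the lowest Isl1 signal, 2989 and 2996, were wild type mice of 1 range. Within genotypes Isl1 followed the level of striatal projection neuron markers at r = 0.85, reached by 0.357% of tested probes, and ran against that of microglia markers at r = -0.87. The part of these cells in its signal was not tested.

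Levels of cholinergic markers were set beside these 3 factors. Of 6 markers, 5 were tested, all 5 detected in every mouse, with 0 past the threshold in limma's test. At an unadjusted p under 0.05 there were 2, against 17.6% of all tested probes. The list's level, the mean of its genes' log2 signals centred over the 9 mice, was 0.09 to 0.24 in the Tlx overexpressing and -0.37 to 0.14 in the wild type mice. Wild type mouse 2996, highest of its group in Gbx2, had the highest wild type level here too, and mouse c1, lowest in Lhx8, had the lowest. The other ends did not match: wild type mouse 2989 was lowest in Gbx2 and 3164 highest in Lhx8. After the genotype means were subtracted, the level correlated over the 9 mice at 0.42 with Gbx2 and at 0.50 with Lhx8. A correlation at least as high was found in 13.7% and 8.97% of all tested probes. Without mice c1 and 2989, r was 0.48 for Gbx2 and 0.32 for Lhx8. Gbx2, Lhx8 and Isl1 did not follow each other within genotypes, with Pearson's r of 0.18, -0.22 and 0.01 for the 3 pairs. The relation was not particular to cholinergic markers. The level of cortical excitatory neuron markers correlated at 0.41 with Gbx2 and at 0.57 with Lhx8. That of the 2 tested sex-linked genes did so at 0.63 and 0.53. Gbx2 ran against the level of ependymal cell markers (r = -0.74) and Lhx8 against that of endothelial cell markers (r = -0.73). The part of these cells in the differences was not tested.

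Nkx6-2, a homeobox factor of ventral SVZ progenitors and of myelinating oligodendrocytes, was measured by 2 probes that ran in parallel (r = 0.95 within genotypes). The brighter probe, ILMN_2635578, read 8.09, 8.04, 8.17 and 8.29 in mice 2995, 3155, 3157 and 3163. It read 7.66, 7.90, 8.39, 7.92 and 7.46 in wild type mice c1, c2, 2989, 2996 and 3164. The wild type mice spanned the whole range, with the highest and the lowest of all 9 mice among them, and the genotype difference of 0.28 (SE 0.15) was within their SD of 0.35. The dimmer probe gave 0.25 (SE 0.14). Of 10 oligodendrocyte markers, 8 were tested, with 0 past the threshold in limma's test and 2 at an unadjusted p under 0.05, against 17.6% of all tested probes. Mouse 2989 was also highest and 3164 lowest in the level of these markers. That level ran from -0.30 to 0.38 in the wild type and from -0.05 to 0.13 in the Tlx overexpressing mice. Within genotypes it correlated with the brighter Nkx6-2 probe at r = 0.92 (Spearman's rho 0.63), as high as or higher than all but 0.225% of tested probes. Without mice 2989 and 3164 r was 0.50, so the relation rests on these 2 mice. Astrocyte markers moved with Nkx6-2 as well: their level correlated at r = 0.81 with the brighter probe and at r = 0.88 with the dimmer one, reached by 0.699% and 0.137% of tested probes. For the dimmer probe the oligodendrocyte value was 0.90, reached by 0.376%. Mouse 2989 was highest in the astrocyte level too, and the part of either cell type was not tested.

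The pallial factor Dmrt3, which with Dmrta2 maintains the identity of the dorsal telencephalon in the mouse embryo, ran the other way from Gbx2. Its log2 signal was 6.18, 5.07, 5.66 and 5.59 in Tlx overexpressing mice 2995, 3155, 3157 and 3163, and 6.75, 6.68, 6.46, 6.45 and 6.31 in wild type mice c1, c2, 2989, 2996 and 3164. The groups were apart by 0.13, with mouse 2995 close to the wild type mice and 3155 far below. The mean was 5.62 ± 0.46 (SD, n = 4) against 6.53 ± 0.18 (SD, n = 5), a difference of -0.91 (SE 0.18), or 1.87-fold higher in the wild type mice. It was -0.58 in the authors' normalised intensities and -0.57 without background correction. In the deposited intensities before normalisation, the Tlx overexpressing mice read 91.0, 58.2, 77.0 and 69.9, and the wild type mice 127.2, 130.6, 103.1, 101.0 and 100.8.

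Dmrta2, the relative of Dmrt3 that is needed for the medial pallium and the cortical hem, was brighter and overlapped. It read 8.18, 7.61, 7.90 and 8.05 in the Tlx overexpressing mice and 8.38, 8.40, 7.89, 8.03 and 8.17 in the wild type mice, in the same order. Mouse 3155 was again the lowest and c1 and c2 again the highest. The difference was -0.24 (SE 0.13), close to the SD of 0.25 and 0.22 within each genotype.

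Choroid plexus markers moved with both Dmrt genes. Of 14 markers, 10 were tested and detected in all 9 mice, Ttr among them. Of these, 2, Calml4 and Steap1, were lower in the Tlx overexpressing mice, where 0.401% of all tested probes were called lower. Each of the 10 differences was negative with an unadjusted p under 0.05, found in 17.6% of all tested probes, and their median was -0.82. The list was chosen with earlier results of these data known, and 10 genes in the same 9 mice are not 10 separate results. Nothing is read from these counts. The list's level was 0.16, -1.03, -0.53 and -0.32 in mice 2995, 3155, 3157 and 3163 and 0.66, 0.41, 0.07, 0.30 and 0.30 in mice c1, c2, 2989, 2996 and 3164. Within genotypes it correlated over the 9 mice with Dmrt3 at r = 0.92 (Spearman's rho 0.78) and with Dmrta2 at r = 0.89 (rho 0.90). Only 0.709% and 1.31% of tested probes correlated with the level as highly. Without mice 3155 and 3157, the 2 farthest from the median, r was 0.84 and 0.80. For Gbx2 it was -0.45, and 0.30 without the same 2 mice, so its sign depended on them. The part of choroid plexus in the Gbx2 difference was not tested. Other lists moved with the Dmrt genes too. Dmrta2 followed the level of ependymal cell markers at r = 0.85, reached by 0.792% of tested probes, and ran against that of cortical excitatory neuron markers at r = -0.87. Dmrt3 followed the level of endothelial cell markers at r = 0.83, reached by 1.47%. The part of choroid plexus or of these other cells in the differences of Dmrt3 and Dmrta2 was not tested.

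Fezf2, a zinc finger factor that specifies subcerebral projection neurons of the cortex, varied strongly between mice and not by genotype. Probe ILMN_2512430 read 7.71, 8.57, 8.15 and 8.10 in mice 2995, 3155, 3157 and 3163 and 7.89, 7.89, 9.19, 8.66 and 7.80 in mice c1, c2, 2989, 2996 and 3164. Its difference was -0.15 (SE 0.27), against an SD of 0.61 between the wild type mice. The dimmer probe ILMN_2932692 ordered the mice in nearly the same way (r = 0.99 within genotypes) and differed by -0.23 (SE 0.25). Mice 2989, 2996 and 3155 were the 3 highest in both probes.

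These were also the 3 mice with the most signal of cortical excitatory neuron markers. The level of that list was 1.17, 1.01 and 0.86 in mice 2989, 2996 and 3155, and between -1.11 and 0.09 in the other 6 mice. Of its 10 genes 6 were tested, Slc17a7, Tbr1, Neurod2, Emx1, Nrgn and Camk2a. Of these, 3 were detected in all 9 mice, Tbr1 and Emx1 in 8 and Neurod2 in 7. Between genotypes 0 passed the threshold in limma's test, and 0 had an unadjusted p under 0.05, where 17.6% of all tested probes did. Within genotypes the level correlated with the brighter Fezf2 probe at r = 0.94 (Spearman's rho 0.82), and at 0.94 without mice c2 and 2989. As high a value was reached by 0.596% of tested probes. The relation was not limited to this list. The same probe followed the level of microglia markers at r = 0.90, which 0.293% of tested probes reached, and that of oligodendrocyte markers at r = 0.85, which 0.699% reached. The part of cortical tissue or of these glia in the Fezf2 signal was not tested.

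**Figure D2:**
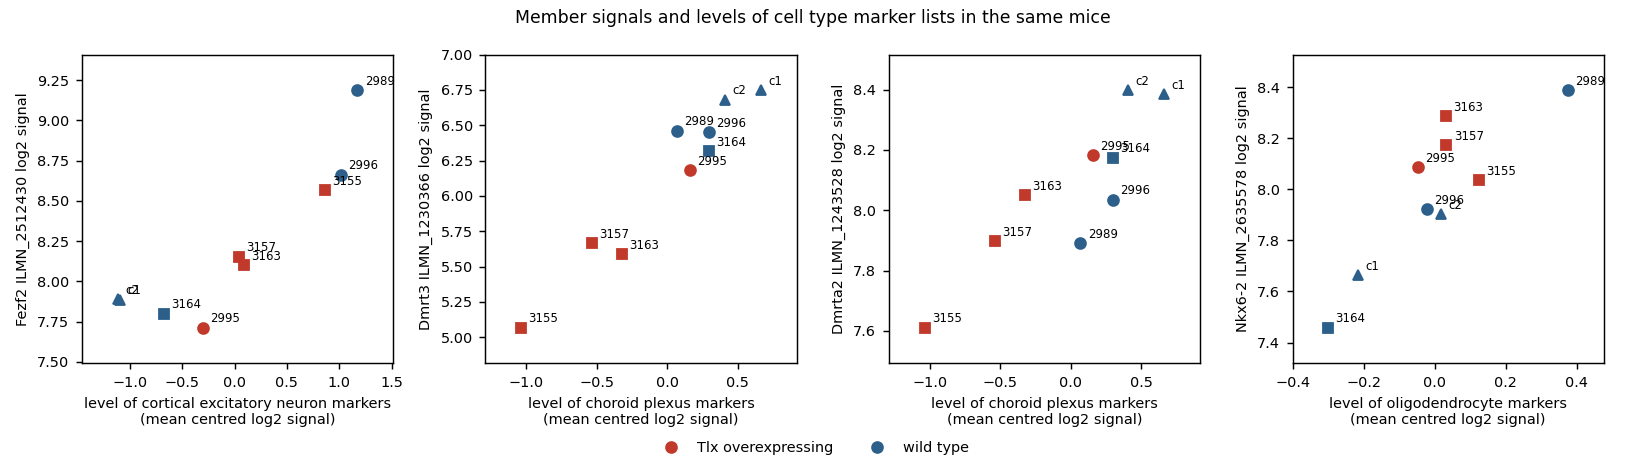
Log2 signal of Fezf2, Dmrt3, Dmrta2 and Nkx6-2 (y axes) against the level of a marker list in the same mouse (x axes, mean centred log2 signal). Each point is 1 mouse with its name, red for Tlx overexpressing and blue for wild type, with point shape by range of the mouse name. Fezf2 is highest in mice 2989, 2996 and 3155, Dmrt3 and Dmrta2 are lowest in mouse 3155, and Nkx6-2 is highest in 2989 and lowest in 3164.

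The Zic genes, zinc finger factors of the dorsal midline, septum and medial SVZ, varied together between mice. Zic2 (ILMN_2470518) read 7.18, 6.98, 6.52 and 6.53 in mice 2995, 3155, 3157 and 3163 and 7.34, 6.97, 6.31, 6.21 and 7.45 in mice c1, c2, 2989, 2996 and 3164. Zic1 read 6.74, 6.41, 6.02 and 6.57, and 6.84, 6.48, 6.08, 6.13 and 7.23, in the same orders. Mouse 3164 was the highest for Zic1 and Zic2 and mice 2989 and 2996 were low for both. The genotypes overlapped fully: the difference was -0.05 (SE 0.25) for Zic2 and -0.12 (SE 0.22) for Zic1.

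Zic4, which shares its locus with Zic1, was measured by 4 detected probes that agreed on the mice but not on the sign of the genotype difference. Probe ILMN_2810424 read 6.44, 6.46, 6.09 and 6.20 in the Tlx overexpressing mice and 7.19, 6.63, 5.96, 6.20 and 7.01 in the wild type mice, a difference of -0.30 (SE 0.22). The others differed by -0.08 (ILMN_1242831, SE 0.21), -0.22 (ILMN_1246394, SE 0.16) and 0.21 (ILMN_1213145, SE 0.26). All 4 differences were smaller than the SD between the wild type mice, which was 0.35 to 0.59.

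Within genotypes, the 15 pairs of the 6 Zic probes correlated over the 9 mice at 0.82 to 0.97, with a median of 0.92. Pairs of 2 probes of Zic4 itself are among the 15. Zic2 and Zic4, which are on different chromosomes, reached 0.97, above any pair of probes of Zic4 itself. Zic4 was among the 3 genes most like Zic1 and among the 3 most like Zic2 over all named probes. The reverse did not hold: the 3 genes most like each Zic4 probe included neither Zic1 nor Zic2. An r of at least 0.9 with a Zic probe was reached by 0.127% (Zic1) to 0.381% (Zic4 ILMN_2810424) of the other tested probes. The Zic probes ran against the level of cortical excitatory neuron markers, with r of -0.81 to -0.63, and against that of oligodendrocyte markers. They also ran against both Fezf2 and both Nkx6-2 probes, as the map of covariation shows. Of 7 septal neuron markers, 6 were tested, Dlk1, Crhr2, Sst, Pvalb, Nts and Gal. Crhr2 was detected in 5 and Gal in 6 mice. Of the 6, 2 passed the threshold, Sst and Gal, both higher, where 0.538% of all tested probes were called higher. Dlk1 differed by 0.21, and Crhr2, Pvalb and Nts went the other way by -0.17, -0.18 and -0.06. The median difference of the list was 0.07. The list's level was -0.00267 to 0.17 in the Tlx overexpressing and -0.20 to 0.13 in the wild type mice. It did not rise with the Zic probes (r = -0.35 for Zic2). It also ran against the striatal projection neuron level (r = -0.94) and with the oligodendrocyte level (r = 0.86). Whether the Zic signal followed septal tissue was not tested.

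**Figure D3:**
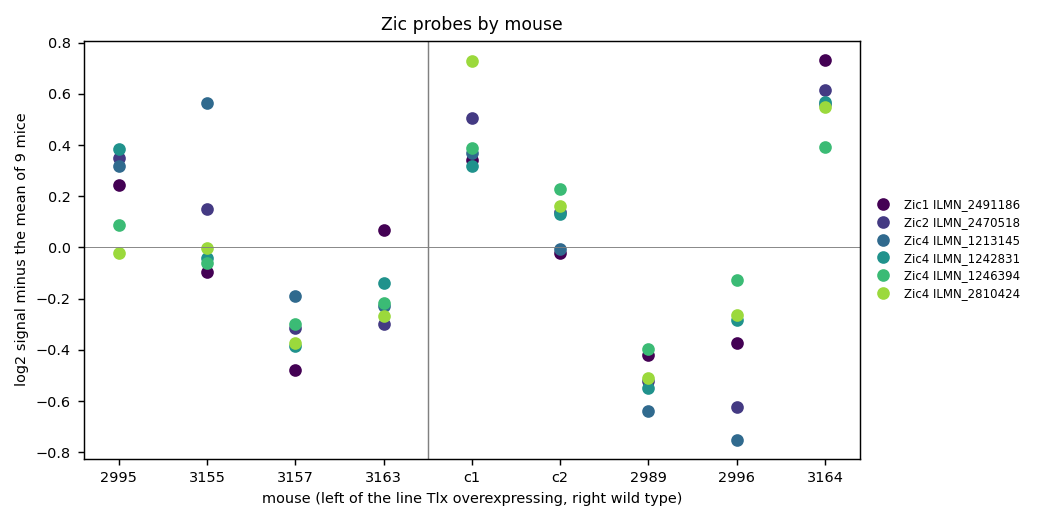
Log2 signal of the 6 detected Zic probes in each mouse, minus the mean of the 9 mice (y axis). Colours stand for probes, mice left of the vertical line are Tlx overexpressing and mice right of it wild type. Within the wild type group, c1 and 3164 are above and 2989 and 2996 below the mean for all 6 probes.

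**Figure D4:**
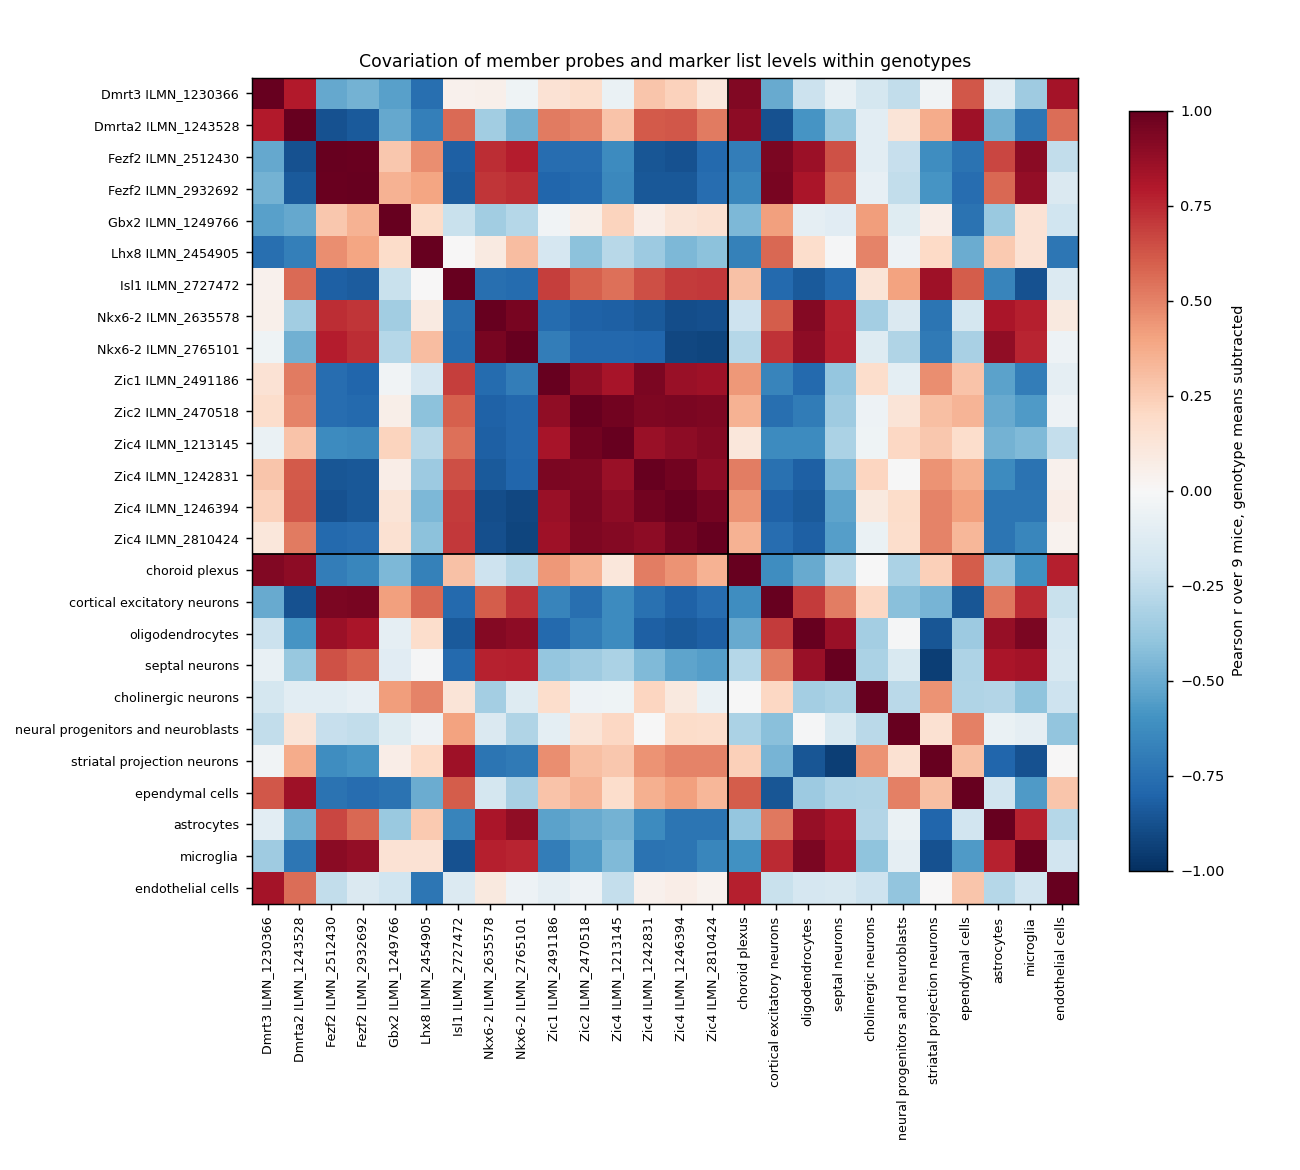
Pearson's r over 9 mice between the 15 tested probes and the levels of 11 marker lists, after the mean of each genotype was subtracted. Red is positive and blue negative. The Zic probes form a positive block (0.82 to 0.97), opposite to Fezf2 and Nkx6-2, and the 2 Dmrt genes follow the choroid plexus level (0.92 and 0.89).

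The genes most like each member by the same measure were named by a fixed rule, with no statement on shared function. For Dmrt3 they were Snap23 (r = 0.99), Moxd1 (0.99) and Hdhd3 (0.98), and 112 of the 20455 other probes (0.548%) had an r of at least 0.9. For Fezf2, Fgf13 was among the closest 3 of both probes (0.99 each). For Gbx2 they were Med1 (0.98), Trpm3 (0.97) and Mcrs1 (0.97), and 23 probes (0.112%) reached 0.9, the fewest of any member. With 9 mice and 20456 probes such values arise often, and they describe these mice only.

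The range of the mouse name was the only other grouping the labels gave. In limma's F-test of the 3 ranges with genotype in the model, 0 of 15 member probes passed at an adjusted p under 0.05, where 0.0196% of all tested probes did. At an unadjusted p under 0.05 there were 2 of 15, against 13.4% of all probes. These were Isl1 (limma adjusted p = 0.29) and Dmrt3 (limma adjusted p = 0.32). Within ranges, the genotype difference kept its sign for 3 of 15 probes. Gbx2 differed by 1.19 between mouse 2995 and mice 2989 and 2996, and by 1.51 between mice 3155, 3157 and 3163 and mouse 3164. Lhx8 differed by 0.18 and 0.29. Dmrt3 differed by -0.27 and -0.88, the first of which is well under the pooled difference. For the other 12 probes the signs were opposite. All 6 Zic probes were higher in mouse 2995 than in its range mates, by 0.35 to 1.01, and lower in the other comparison, by 0.51 to 0.90. Fezf2 was the reverse, with -1.21 and 0.47 for the brighter probe.

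**Figure D5:**
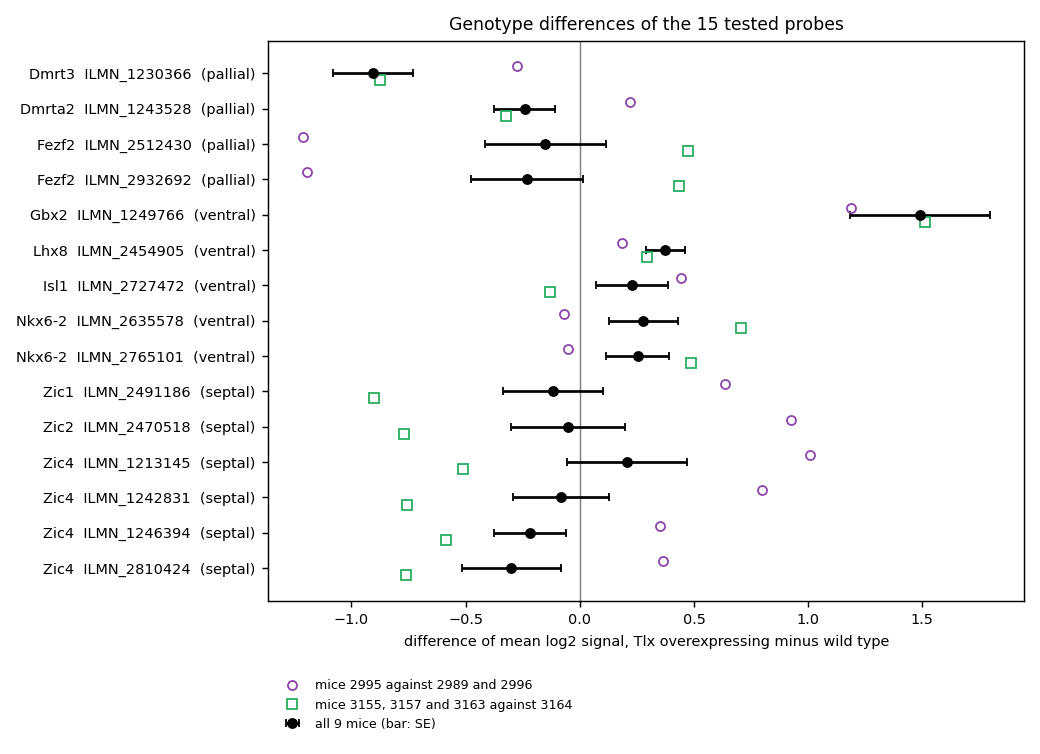
Difference of mean log2 signal, Tlx overexpressing minus wild type (x axis), for the 15 tested probes (y axis). Black points are all 9 mice with SE, open circles the comparison within mice 2989, 2995 and 2996, and open squares that within mice 3155, 3157, 3163 and 3164. Only Gbx2, Lhx8 and Dmrt3 keep 1 sign in both ranges.

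In limma's fit over all tested probes, 2 of the 15 member probes passed the threshold between genotypes, Gbx2 higher and Dmrt3 lower, where 0.939% of all tested probes passed (0.538% higher, 0.401% lower). The groups did not overlap in 3 of the 15, where this held for 6.27% of all (3.24% higher, 3.04% lower). An unadjusted p under 0.05 was found in 17.6% of all tested probes. Since the members were chosen with this contrast known, nothing is read from these counts. Differences were positive for 6 and negative for 9 probes, with a median of -0.08 against 0.00 over all tested probes. By role, all 4 pallial and 5 of 6 septal probes were negative and all 5 ventral probes positive. Over all 20456 tested probes, 10409 were positive. Probes of 1 gene are counted separately here, and nothing is read from this split either. Of the 15 probes, 12 overlapped between genotypes, and 12 had opposite signs in the 2 ranges that hold both genotypes. The sign of the brighter Fezf2 probe turned without mouse 2989, and the signs of Zic1, Zic2 and Zic4 ILMN_1242831 turned without 1 or more of the mice or with the block. The count of passing probes was 0 without mouse 3155, 3157, 3163, c1, c2 or 2989, 1 without 2996 (Gbx2) or 3164 (Dmrt3), and 3 without 2995, with Lhx8. It was 0 with the range as a block, where 0.249% of all tested probes passed, in which Gbx2 differed by 1.36 (SE 0.39) and Dmrt3 by -0.59 (SE 0.17).

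Other regional factors, not members, were compared between genotypes by the same fit. Of 67 genes in 4 lists, 34 had a tested probe. Of these, 2 passed, both higher in the Tlx overexpressing mice, where 0.538% of all tested probes were called higher. The change of 1 of them, Tfap2c, was known when the list was written. The groups did not overlap in 4 of the 34, against 6.27% of all tested probes. The median difference of the 34 was 0.08, against 0.00 over all tested probes.

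In the pallial list, 7 of 20 genes were tested, and 4 had a positive and 3 a negative difference. Of the 7, 1 rose, where 0.538% of all tested probes did. Tfap2c, an AP-2 factor of cortical progenitors, read 5.47, 6.39, 6.78 and 6.67 in mice 2995, 3155, 3157 and 3163 and 4.54, 5.31, 4.86, 5.18 and 5.06 in mice c1, c2, 2989, 2996 and 3164. The groups did not overlap, and the change was 1.34 (SE 0.23, limma adjusted p = 0.024). A second probe rose as well, by 0.92 (adjusted p = 0.016). The call was lost without mouse 3155, 3157, 3163 or c1. It was also lost with the range as a block (1.03, adjusted p = 0.14), and the difference was 0.45 in the range of mouse 2995 and 1.55 in that of 3164. Emx1, Lhx2, Neurog2, Nr2f2, Tbr1 and Neurod2 did not pass.

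In the subpallial list, 15 of 23 genes were tested, 12 had a positive difference, as did 10409 of all 20456 tested probes, and 1 rose, where 0.538% of all tested probes did. Pbx3, a TALE homeobox factor of striatal and olfactory bulb interneuron lineages, read 7.31, 7.48, 7.34 and 7.23 in the Tlx overexpressing and 6.68, 7.06, 6.63, 6.98 and 6.83 in the wild type mice. The groups did not overlap, and the change was 0.50 (SE 0.10, limma adjusted p = 0.041). Another Pbx3 probe had 0.38 (adjusted p = 0.089). The difference was as large within the ranges (0.50 and 0.52) and with the range as a block (0.51, adjusted p = 0.17), where the call was lost. It was also lost on leaving out any 1 mouse but 2995 and c2. Dlx1 (0.45, limma adjusted p = 0.064) and Gsx1 (0.33, limma adjusted p = 0.087) did not pass, but their groups did not overlap either. Gsx1 was detected in 4 Tlx overexpressing and 0 wild type mice. Non-overlap thus held for 3 of the 15 genes, against 6.27% of all tested probes. Dlx1 and Dlx2 are also among the progenitor and neuroblast markers.

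In the septal and midline list, 7 of 14 genes were tested, 1 had a positive and 6 a negative difference, and 0 passed in limma's test. The smallest p-values were those of factors of the roof plate and choroid plexus lineage, Otx2 (-0.82, adjusted p = 0.12), Msx1 (-0.73, adjusted p = 0.14) and Lmx1a (-0.71, adjusted p = 0.14). A second, dimmer Msx1 probe differed by only -0.16 (limma adjusted p = 0.38). All 3 were past the threshold without mouse 2995, with differences of -1.13 for Otx2 and -0.96 for Msx1. Like Dmrt3, they were lowest in mouse 3155, and in the range of mouse 2995 their differences were positive (0.19, 0.29 and 0.25). Otx2 is itself 1 of the choroid plexus markers. In the thalamic and habenular list, 5 of 10 genes were tested, 4 had a positive and 1 a negative difference, and 0 passed in limma's test. Nearest were Prox1 (0.43, adjusted p = 0.11, and 0.31 with adjusted p = 0.22 for a second probe), Irx3 (-0.38, adjusted p = 0.27) and Tcf7l2 (0.27, adjusted p = 0.30), and Prox1 passed without wild type mouse c2. At an unadjusted p under 0.05, 3 genes of the septal and midline list and 2 of the thalamic list were counted, against 17.6% of all tested probes.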

How the data were processed

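Biotinylated cRNA of 10 arrays from 9 mice was read on Illumina bead arrays, per the labels. Both tables that the authors deposited hold linear probe intensities. The one named non-normalized had equal medians (40.69 to 40.71) and so held quantile-normalized intensities, beside each probe's detection p-value on every array, per the file headers. The other had medians of 36.8 to 43.2 and was used here. Whether the authors subtracted background is not stated.

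Signals were corrected with normexp (offset 16, with negative controls that neqc infers from detection p-values), made equal in quantiles and log2-transformed (limma 3.58.1, R 4.3.3). For c1 the mean of both arrays was used. Genotypes were compared with lmFit and eBayes, and ranges of the mouse name with an F-test, with Benjamini-Hochberg adjustment over 20456 probes at 0.05. The fit was tested on simulated data. The offset compresses dim probes, and levels of different probes are not comparable. Probe names came from the platform annotation, updated through RefSeq (34807 of 34885 probes with 1 symbol).

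The members and lists were chosen with earlier results of these data known. Named genes are all members, and of each regional list those past the threshold or the 3 with the smallest p. In the pallial and subpallial lists other genes are named as well. A list uses each gene's brightest tested probe. Alternatives are named in the closing section.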

Additional observations from a re-analysis of the deposited data

Results flagged for a closer look

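In 1 of 30 sets (15 probes, each in 2 genotypes), 1 mouse stood far from the others of its genotype. Lhx8 (ILMN_2454905) in Tlx overexpressing mouse 2995 read 5.40 on the log2 scale, while the other 3 mice read 5.56 to 5.59, so that 0.873 of the group's range lay between 2995 and its nearest neighbour. About 1 in 20 such sets is picked out by chance.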

How the results depend on the processing

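The 16 alternatives for the genotype contrast were the authors' normalized intensities, no background correction, an offset of 50, no filter, a detection p-value under 0.01, the first array of c1 only, the range of the mouse name as a block, and leaving out each of the 9 mice. The count of member probes past the threshold (2) was 1 with the authors' intensities or no background correction, and 0 with an offset of 50, no filter or the range block. Without 1 mouse it was 0 to 3. The count of other regional genes (2) was 1 with an offset of 50, 0 with no filter or the range block, and 0 to 6 without 1 mouse. For all 45281 probes unfiltered, more tests are adjusted over. Counts over all probes went from 192 to 150, 147, 122, 56, 181, 154 and 51 in the order above, and to between 26 and 758 without 1 mouse.

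The differences of Gbx2 (0.87 to 1.68), Dmrt3 (-1.09 to -0.57) and Lhx8 (0.20 to 0.42) had the same sign in all 16 alternatives. Zic2 changed sign in 5, the brighter Fezf2 probe in 1, and Zic1 and Zic4 ILMN_1242831 in 2 each, with differences near 0 in each case. The range F-test called 0 member probes in each of 6 alternatives. Detection in all 9 mice held for 13 instead of 15 probes at 0.01. No paired analysis was possible because the mouse names do not pair mice across genotypes. The number of arrays limits the precision, and so does the signal of Gbx2 near background in wild type mice c2 and 2989.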
